A study of Danio rerio with 12 samples.

Results

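The C-reactive protein genes of the zebrafish are a small family of secreted pentraxins, and they were followed here in 12 libraries of adult whole liver. The family was defined by name: 7 symbols, crp1 to crp7, were looked up without regard to case among the Ensembl identifiers of the deposited tables. Of these, 6 matched 1 identifier each, out of 32520 genes in all: crp1 (ENSDARG00000071454), crp2 (ENSDARG00000056462), crp3 (ENSDARG00000042613), crp5 (ENSDARG00000056498), crp6 (ENSDARG00000071457) and crp7 (ENSDARG00000071456). The symbol crp4 matched none and was not analysed here. RefSeq lists crp1, crp2, crp3, crp4 and crp5 next to each other on assembly GRCz12tu, and crp6 and crp7 follow 7 and 8 places after crp1, so the family is a tandem cluster.

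The study compared 6 libraries from glo2-/- fish, a CRISPR knockout of glyoxalase 2, with 6 libraries from glo2+/+ fish. All fish carried the Tg(fli1:EGFP) transgene, which marks endothelial cells with a green fluorescent protein, and all were untrained. Age, sex and the exact lesion of the knockout allele are not given in the labels. The labels do not state whether the libraries are separate animals, so p-values measure the spread between these libraries, which may be partly technical.

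Short pentraxins, to which C-reactive protein belongs, are ring-shaped blood proteins built from identical subunits that the liver secretes. C-reactive protein binds phosphocholine on microbes and on damaged cells, and its bound form can recruit the complement component C1q. In human hepatocytes its gene is a classic acute phase gene, switched on by interleukin 6 through the transcription factors STAT3 and C/EBP. Fish carry several crp copies where human has a single gene.

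The libraries held between 17433960 and 18465485 estimated counts. Hepatocyte markers, all 22 of which had enough counts to be tested, summed to between 219849 and 394504 CPM (counts in every 1000000 of the TMM-adjusted library) in glo2-/- liver and to between 244569 and 386554 CPM in glo2+/+ liver, in accord with the tissue label. The targeted gene, printed as HAGH in the name table, averaged 81.5 ± 4.47 CPM over the knockout libraries and 94.8 ± 5.397 CPM over the wild type ones (SD, 6 per genotype), without overlap (exact two-sided permutation p = 0.00216, edgeR adjusted p = 0.819), so most of its mRNA was kept. In TPM, the length-corrected scale used below, HAGH did overlap between the genotypes. It ran from 44.5 to 63.4 TPM in knockout and from 46.3 to 69.8 TPM in wild type libraries.

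The copies were used very unequally. On the TPM scale, which corrects for transcript length and so allows genes to be compared, crp3 came first with a median of 3535 TPM over the 12 libraries, followed by crp2 with 13.6 TPM and crp5 with 5.05 TPM. The median was 0.219 TPM for crp7 and 0 for crp6 and crp1. The place of crp3 at the top held in all 12 libraries, where its TPM was between 46.1 and 1319 times that of crp2. The order of crp2 and crp5 was not fixed: crp2 had the higher TPM in 9 libraries and crp5 in the other 3, namely glo2-/- replicates 2 and 5 and glo2+/+ replicate 6. Of the summed TPM of the family, crp3 made up between 85.9% and 99.7% in glo2-/- liver and between 98.7% and 99.8% in glo2+/+ liver. The lowest of these shares belonged to glo2-/- replicate 2, in which crp5 alone held 12.097% of the family's TPM.

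The crp3 transcript was one of the abundant messages of the liver. It ranked between 26 and 63 among all genes by TPM in glo2-/- libraries and between 25 and 53 in glo2+/+ libraries. In glo2-/- replicates 1 to 6 it stood at 4408, 4294, 3514, 3968, 2914 and 1966 TPM, and in glo2+/+ replicates 1 to 6 at 4958, 3829, 2668, 2911, 3440 and 3557 TPM. The groups overlapped throughout, and the lowest value of all was that of glo2-/- replicate 6. With library factors applied, the mean of crp3 was 1881 ± 660 CPM over the knockout libraries and 1969 ± 476 CPM over the wild type ones (SD, 6 per genotype). The edgeR quasi-likelihood test put its log2 fold change at -0.066 with a standard error (SE) of 0.24 and a 95% interval of -0.59 to 0.46 (adjusted p = 0.976), and exact permutation of the genotype labels (two-sided) returned p = 0.675.

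The crp5 transcript was distributed quite differently, with most of it in a single library. In glo2-/- replicates 1 to 6 it had 7.79, 320.5, 2.26, 5.88, 2.79 and 12.8 CPM, and in glo2+/+ replicates 1 to 6 it had 2.92, 2.98, 1.06, 3.00, 1.67 and 2.07 CPM. Replicate 2 stood far above every other glo2-/- library, and replicate 6 came second. These correspond to 5928 and 267 estimated counts, against 16 to 59 counts in the glo2+/+ libraries, so the values do not rest on a handful of reads. Replicate 2 carried 90.9% of all crp5 counts of glo2-/- liver. Of the 6 glo2-/- libraries, 4 lay above every glo2+/+ library, while replicates 3 and 5 lay within the glo2+/+ range.

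Averaged over libraries, crp5 came to 58.7 ± 128 CPM in the knockout and to 2.28 ± 0.815 CPM in wild type (SD, 6 per genotype), an SD larger than the mean in the knockout. Its medians were 6.84 CPM in the knockout and 2.496 CPM in wild type, a ratio of 2.74. In edgeR its log2 fold change came to 4.68 (SE 1.24), with a 95% interval of 2.01 to 7.34. The unadjusted p was 0.00214 and the edgeR adjusted p over all tested genes was 0.668, so crp5 did not pass the threshold of 0.05. Exact permutation of the genotype labels (two-sided, unadjusted) returned p = 0.0216, where 0.00216 is the smallest p that 6 libraries against 6 allow.

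The crp2 transcript was high in the same pair of libraries, to a smaller degree. In glo2-/- replicates 1 to 6 it had 8.27, 49.96, 2.26, 3.63, 1.15 and 11.01 CPM, and in glo2+/+ replicates 1 to 6 it had 5.79, 4.91, 5.51, 2.59, 3.18 and 2.02 CPM. Replicates 2, 6 and 1 of glo2-/- were above every glo2+/+ library, whereas glo2-/- replicate 5 was below every one. Its mean was 12.7 ± 18.6 CPM over the knockout libraries and 4.00 ± 1.61 CPM over the wild type ones (SD, 6 per genotype). For crp2 edgeR gave a log2 fold change of 1.67 (SE 0.74), with a 95% interval of 0.080 to 3.26 and an adjusted p of 0.819 (0.0409 unadjusted). Exact permutation of the labels returned a two-sided p of 0.459.

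**Figure D1:**
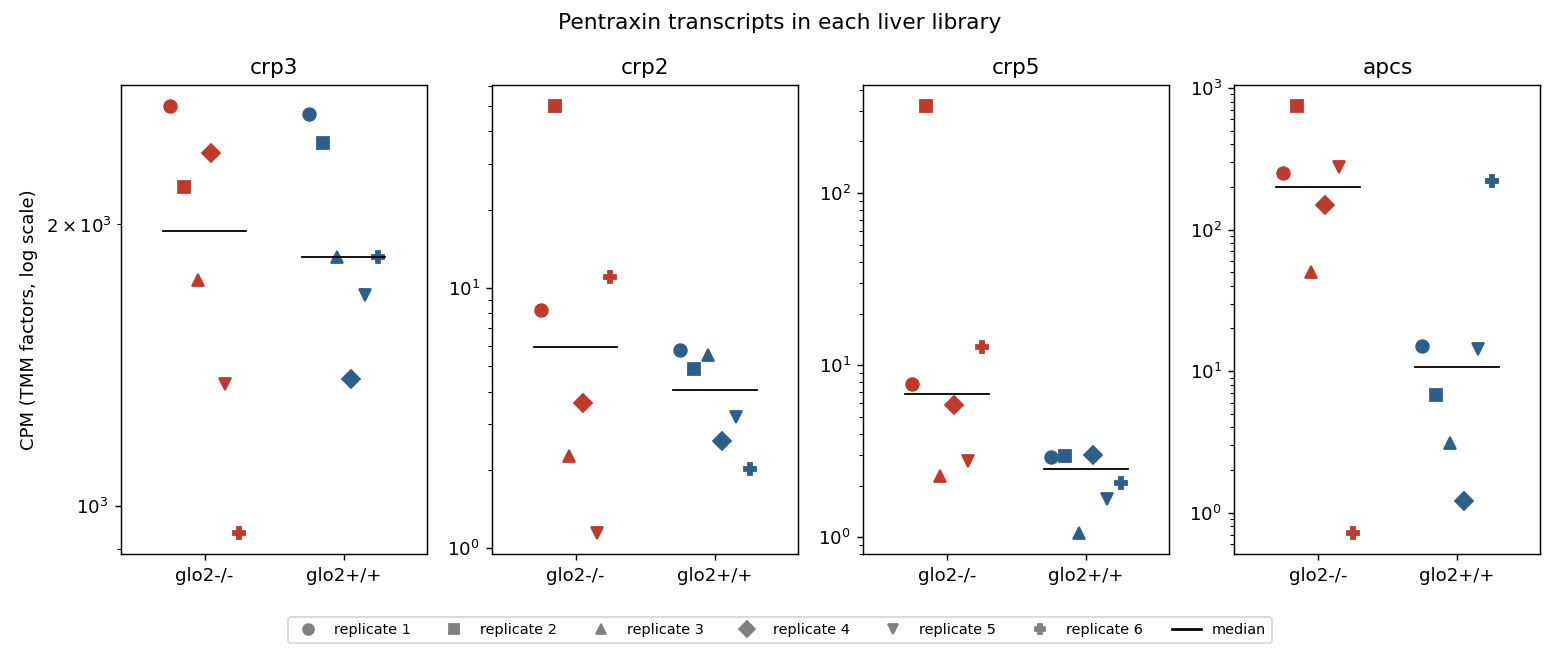
CPM with TMM factors on a log axis for crp3, crp2, crp5 and the related pentraxin apcs, with 1 symbol per replicate number and a line at the median of each genotype (6 libraries each). In glo2-/- replicate 2, crp2 reached 49.96 CPM and crp5 320.5 CPM, the highest value of either gene, while crp3 overlapped between the genotypes.

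The silent end of the family held crp1, crp6 and crp7, none of which had enough counts to be tested in the main edgeR fit. Reads of crp1 were found in only 2 of the 12 libraries: glo2-/- replicate 2 with 35 counts (95% exact Poisson interval 24.4 to 48.7) and glo2-/- replicate 6 with 20 counts (12.2 to 30.9). By CPM, these are the libraries with the most and the second most crp2 and crp5. In TPM, glo2+/+ replicate 3 came second in crp2, at 33.3 TPM against 29.5 TPM in glo2-/- replicate 6. Of crp1, the other 10 libraries, all 6 of glo2+/+ among them, had 0 counts (95% exact Poisson interval 0 to 3.69). A floor set at 3 counts equals between 0.150 and 0.199 CPM per library. Both positive libraries were of one genotype, for which exact permutation (two-sided) returned p = 0.455. With only 2 positive libraries no assignment of the labels is more extreme. The test could not have returned a smaller p, so it does not decide whether crp1 differs by genotype. Intervals and floors cover counting error only.

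Of crp7, 17 counts in all were found in glo2-/- and 24 in glo2+/+ libraries, reaching at most 0.419 CPM in a glo2-/- library and 0.621 CPM in a glo2+/+ one (exact two-sided permutation p = 0.684). Of crp6, 6 counts were found in glo2-/- and 2 in glo2+/+ libraries (exact two-sided permutation p = 0.455). In glo2-/- replicate 2 crp7 had 4 counts and crp6 had 3, few counts beside those of crp1, crp2 and crp5 in the same library.

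Measured against the rest of the transcriptome, crp5 and crp2 were among the least even genes between libraries of the same genotype. The within-genotype SD of log2 CPM was 1.87 for crp5 and 1.40 for crp2, larger than that of 99.0% and 97.4% of the 14509 tested genes, whose median was 0.38. For crp3 the SD was 0.47, larger than that of 66.6% of genes. The highest library exceeded the median library 109-fold for crp5, a ratio that 1 other tested gene surpassed, and 11.7-fold for crp2 and 1.45-fold for crp3. Most of the unevenness lay in the knockout group: the SD of log2 CPM of crp5 was 2.58 in glo2-/- and 0.57 in glo2+/+ libraries, and that of crp2 was 1.88 in glo2-/- and 0.61 in glo2+/+ libraries. This difference in spread was not tested.

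The question of whether 1 library made the genotype difference was answered by leaving out each library in turn. Without glo2-/- replicate 2 the log2 fold change of crp5 was 1.47 (unadjusted p = 0.0043, edgeR adjusted p = 0.732), against 4.68 with all libraries, and without any other single library it stayed between 4.54 and 4.93. The remaining 5 glo2-/- libraries averaged 6.31 ± 4.29 CPM of crp5 (SD, n = 5). For crp2 the log2 fold change was 0.41 without that library (unadjusted p = 0.424, edgeR adjusted p = 0.890), and between 1.53 and 1.92 without any other. Without replicates 2 and 6 together, an omission chosen after their values were seen, crp5 was at 1.04 (unadjusted p = 0.0188, edgeR adjusted p = 0.479) and crp2 at -0.054 (unadjusted p = 0.912). The size of both differences thus came largely from glo2-/- replicate 2, and for crp5 a smaller positive difference was left.

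**Figure D2:**
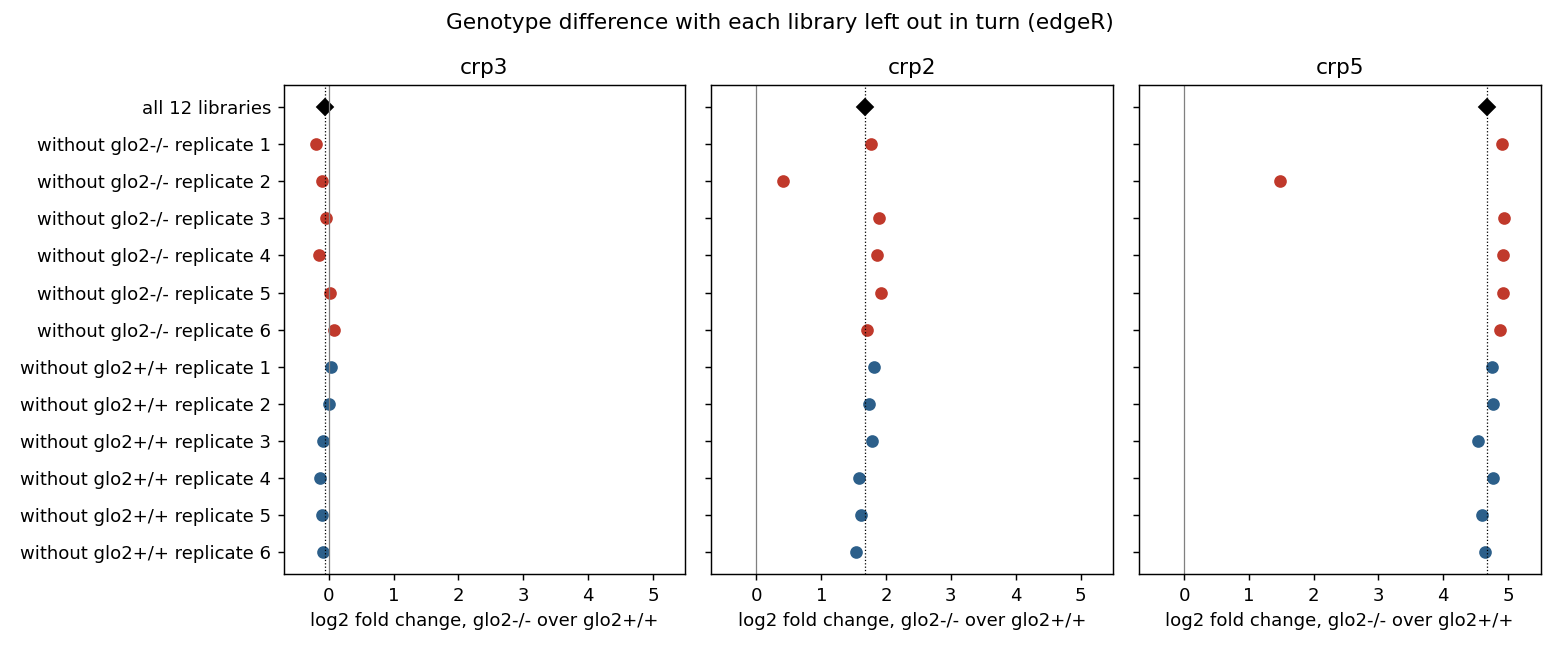
Fitted log2 fold change (glo2-/- over glo2+/+, edgeR) of crp3, crp2 and crp5 with all 12 libraries (diamond, dotted line) and with each library left out (circles, red for glo2-/- and blue for glo2+/+). Leaving out glo2-/- replicate 2 brings crp2 to 0.41 and crp5 to 1.47, and no other omission moves either gene as far.

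None of the 3 tested crp genes passed an adjusted p of 0.05, where 0.00689% of all tested genes did (edgeR). At an unadjusted p under 0.05, 2 of the 3, crp2 and crp5, were higher in glo2-/- liver, a level that 5.88% of tested genes reached, 2.47% of them higher and 3.41% lower. None of the 3 was free of overlap between the genotypes, against 0.248% of tested genes. DESeq2 gave crp5 a log2 fold change of 4.69 but returned no p for it. For crp2 it gave 1.67 with an adjusted p of 0.754.

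The pairwise comparison of the tested copies gave 1 correlated pair. Across the 12 libraries crp2 and crp5 had a Pearson r of 0.84 in log2 CPM (permutation p = 0.00407, adjusted over 3 pairs 0.0122) and a Spearman rho of 0.62 (permutation p = 0.0366, adjusted 0.110). Without glo2-/- replicates 2 and 5, the libraries farthest from the median of crp2, r was 0.61. Within glo2-/- libraries r was 0.94 and within glo2+/+ libraries -0.11 (6 libraries each), and the difference between these was not tested. The dominant copy did not share this pattern: crp3 had an r of 0.22 with crp2 (permutation p = 0.491) and of 0.084 with crp5 (permutation p = 0.802). Neighbouring copies of similar sequence can share reads, and how far reads were divided between crp2 and crp5 was not tested. The estimated counts of crp1 were whole numbers (within 0.01) in the 2 libraries that held any, and the 10 libraries at 0 are whole by necessity. Those of crp5 were not whole in 6 of the 12 libraries, and those of crp2 and crp3 were not whole in any of the 12.

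**Figure D3:**
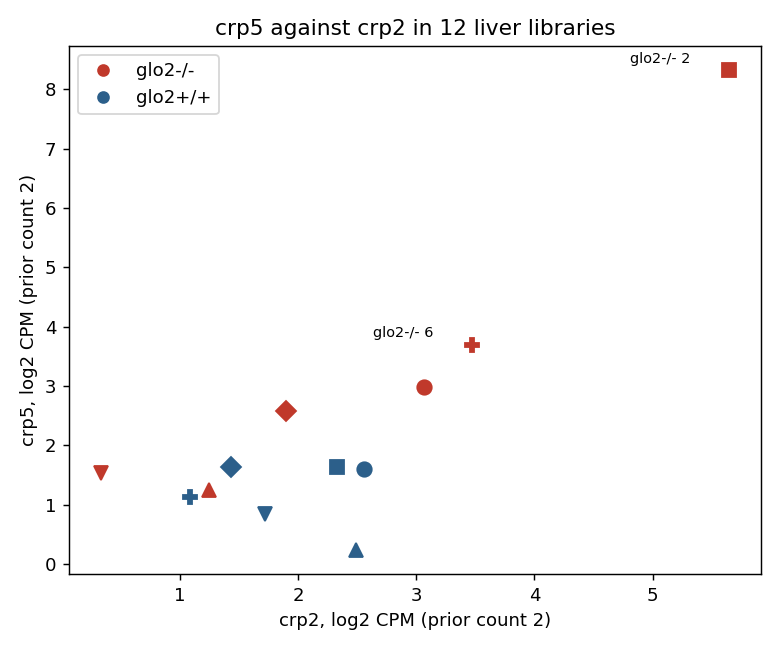
Log2 CPM of crp5 against that of crp2 in each of the 12 libraries, glo2-/- in red and glo2+/+ in blue, with the symbol giving the replicate number. The point at the upper right is glo2-/- replicate 2 and the next is replicate 6, the only libraries with crp1 counts.

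The level of crp2 depended on the scale in which it was read. Estimated counts divided by TPM give a value that moves with the effective length of the transcripts to which reads were assigned, and it varied by a median of 0.743% (coefficient of variation) over 14286 tested genes. For crp3 it varied by 1.24% and for crp5 by 2.96%, but for crp2 by 43.7%, more than for 99.6% of genes, with the highest library at 4.802 times the lowest. Relative to the median gene of a library it was lowest for crp2 in glo2+/+ replicate 3, at 0.0667, and highest in glo2-/- replicate 5 and glo2+/+ replicate 6, at 0.320 in each. For crp5 the value was 0.298 in glo2-/- replicate 2 and 0.300 in glo2-/- replicate 6, and between 0.319 and 0.327 in the other libraries.

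In the deposited TPM, crp2 stood at 16.3, 93.1, 8.17, 13.6, 2.21 and 29.5 TPM in glo2-/- replicates 1 to 6 and at 21.9, 10.4, 33.3, 13.2, 13.6 and 3.43 TPM in glo2+/+ replicates 1 to 6. On this scale glo2+/+ replicate 3 ranked second of all libraries. The log2 fold change on log2(TPM + 1) was 0.23 for crp2 (limma-trend adjusted p = 0.992) and 2.14 for crp5 (limma-trend adjusted p = 0.940), and the r between them was 0.64 (permutation p = 0.0346, adjusted 0.104).

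**Figure D4:**
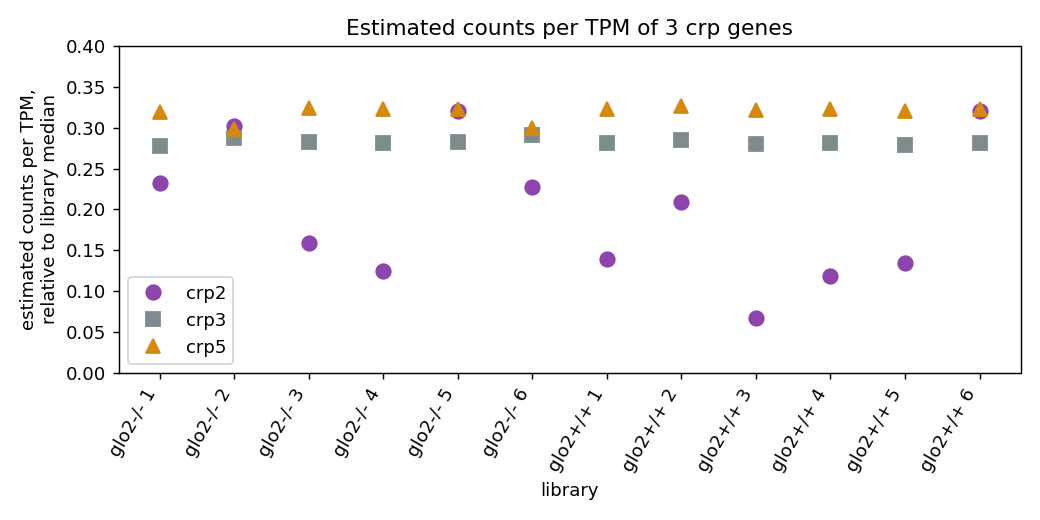
Estimated counts divided by TPM for crp2, crp3 and crp5 in each library, relative to the median of tested genes in that library. The values of crp3 and crp5 stay nearly level, while those of crp2 range between 0.0667 and 0.320.

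Of the pentraxins listed outside the cluster, only apcs (ENSDARG00000045089) had enough counts to be tested. The gene apcs is named for serum amyloid P component, the other short pentraxin of blood plasma, and listed with the synonym crp in RefSeq. Its within-genotype SD was larger than that of any tested crp gene, while its highest library exceeded the median library 22.7-fold, against 109-fold for crp5. In glo2-/- replicates 1 to 6 it had 251.8, 741.8, 50.4, 148.6, 276.7 and 0.721 CPM, and in glo2+/+ replicates 1 to 6 it had 15.1, 6.83, 3.12, 1.22, 14.4 and 218.4 CPM. The within-genotype SD of 3.04 in log2 CPM was exceeded by 8 of the 14509 tested genes. Its log2 fold change in edgeR came to 2.504 (SE 1.30), with a 95% interval of -0.29 to 5.29 and an adjusted p of 0.819, and exact permutation (two-sided) returned p = 0.119. It was 1.77 without glo2-/- replicate 2 and 4.91 without glo2+/+ replicate 6 (edgeR adjusted p = 0.428).

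The libraries with the most crp5 thus parted company in apcs: glo2-/- replicate 2 had the highest apcs level of the 12 and glo2-/- replicate 6 the lowest. The long and neuronal pentraxins were nearly silent. Of 7 further pentraxin genes none had enough counts to be tested, and the highest count in any library was 9 in glo2-/- and 27 in glo2+/+ liver, both of NPTX1, a neuronal pentraxin.

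The genes that carry the acute phase signal were read against the background of all tested genes, of which 0.00689% passed the adjusted threshold, 5.88% had an unadjusted p under 0.05 and 52.4% had a negative log2 fold change. The list of cytokine and receptor genes held 13, of which 8 had enough counts to be tested. Of these 8, 0 were called in either direction (edgeR) and 0 had an unadjusted p under 0.05. Their median log2 fold change was -0.10, where that of all tested genes was -0.015. The genes named next are receptor genes, so they do not show the level of the cytokines themselves. The receptor il6r averaged 69.3 ± 20.6 CPM over knockout and 57.8 ± 14.7 CPM over wild type libraries (SD, 6 per genotype), a log2 fold change of 0.26 (SE 0.21), and tnfrsf1a, a receptor of tumour necrosis factor, had a log2 fold change of -0.25 (SE 0.16). The shared signalling subunit il6st was at -0.022 (SE 0.16).

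Of 22 transcription factors and feedback genes, 0 were called and 2 were lower at an unadjusted p under 0.05, a level at which 3.41% of all tested genes were lower. Among these was nfkbiaa, an inhibitor and target of NF-kappa B, at 5.095 ± 1.74 CPM over knockout and 10.13 ± 5.15 CPM over wild type libraries (SD, 6 per genotype), a log2 fold change of -0.99 (SE 0.34) and an edgeR adjusted p of 0.819. STAT3 was at -0.37 (SE 0.19), CEBPB at -0.16 (SE 0.16) and HNF4A at 0.093 (SE 0.17). The feedback inhibitor SOCS3, a common readout of STAT3 activity, was at 0.019 (ENSDARG00000025428, SE 0.66) and -0.31 (ENSDARG00000026611, SE 0.24).

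The other acute phase proteins numbered 26 tested genes, 9 with a positive and 17 with a negative log2 fold change (65.4% negative, against 52.4% of all tested genes) and a median of -0.080. This list was not divided by the direction in which each protein moves in an acute phase response. Its signs and sums thus do not measure that response. Hepcidin, hamp, a hormone that lowers iron export, averaged 5.79 ± 4.13 CPM over knockout and 16.8 ± 15.7 CPM over wild type libraries (SD, 6 per genotype), a log2 fold change of -1.54 (SE 0.66, edgeR adjusted p = 0.819), and of -1.01 without glo2+/+ replicate 6. STEAP4, a metalloreductase, was at -0.42 (SE 0.24), and at -0.12 without glo2+/+ replicate 1, which held 330.0 CPM. Serum amyloid A, SAA2 in the name table, had at most 3 counts in a glo2-/- and 2 in a glo2+/+ library and was not tested. Of 23 tested complement genes, 8 were positive and 15 negative (65.2% negative) with a median of -0.12, and c1qb, a chain of C1q, had a log2 fold change of -0.69 (SE 0.24) and c3b.1 of 0.43 (SE 0.21, edgeR adjusted p = 0.819 for both).

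The 2 libraries with the most crp5 differed in other acute phase genes. In glo2-/- replicate 2, 4 of the 23 complement genes had their highest value of all libraries (17.39%), as had 5.69% of all tested genes. They were c3a.2 with 2072 CPM (highest other library 1243), cfh with 1075 CPM (893), c3a.6 with 1487 CPM (1438) and cfhl3 with 164.8 CPM (163.7), named after their values were seen. Of the 26 other acute phase genes, 2 were highest there (7.69%), hp and a2ml, also named after their values were seen. Haptoglobin, hp, which binds free haemoglobin, was at 178.5 CPM, against a median of 51.4 CPM in the other libraries. By summed CPM that library ranked 2 of 12 for cytokine and receptor genes, 3 of 12 for complement and 4 of 12 for acute phase proteins. For transcription factor genes it ranked 9 of 12. Of the 160.8 CPM summed there over cytokine and receptor genes, il6r held 94.5 CPM and il6st 39.0 CPM, both receptor genes.

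Next, glo2-/- replicate 6 ranked last of the 12 libraries in crp3 and in apcs. It was also last in the summed CPM of complement genes (10411 CPM) and of acute phase proteins (87650 CPM). The summed CPM of cytokine and receptor genes and of transcription factor genes was lowest there too. In hepatocyte markers it ranked 11 of 12 (231766 CPM). By CPM, that same library ranked second in crp1, crp2 and crp5. The libraries with the most crp1, crp2 and crp5 thus stood apart in apcs, complement, acute phase and cytokine and receptor genes, while both were low in transcription factor genes. Some lists share genes, so their ranks are not independent. For example, fga, fgb, fgg, tfa and ttr are both acute phase and hepatocyte entries, and the C1q genes both complement and macrophage entries. In whole tissue, fewer cells of a type and less RNA per cell cannot be told apart.

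**Figure D5:**
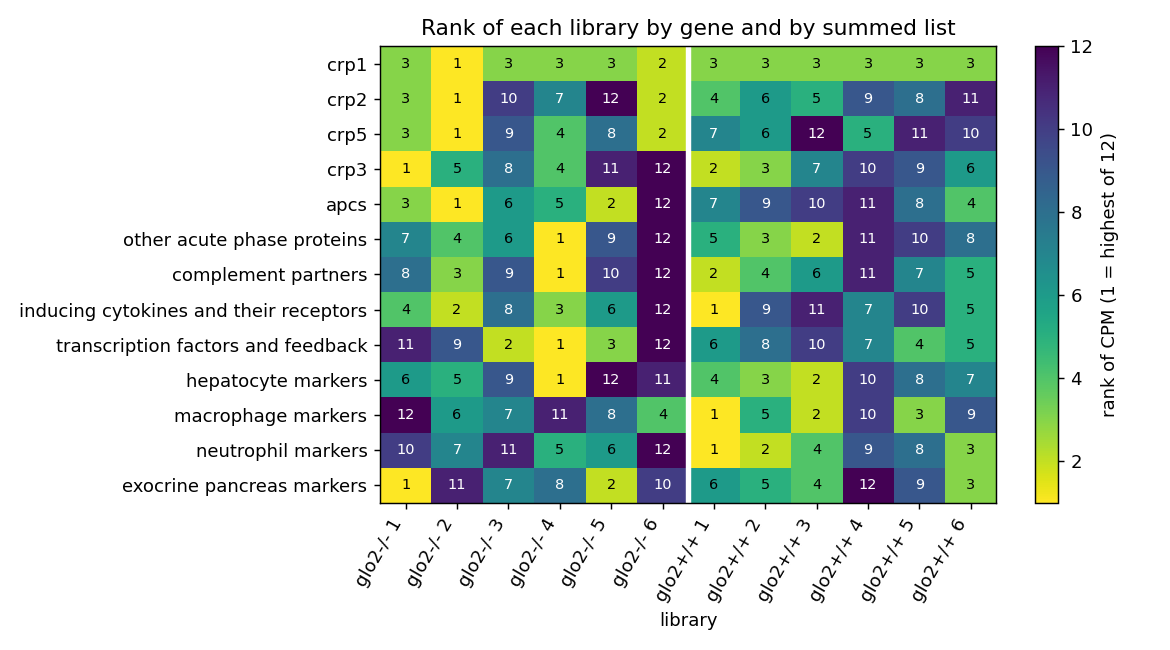
Rank of each library (1 is the highest of 12, ties share the better rank) by the CPM of single pentraxin genes and by the summed CPM of gene lists without the crp genes and apcs, with glo2-/- libraries on the left. Replicates 2 and 6 of glo2-/- rank first and second in crp1, crp2 and crp5, and replicate 6 ranks last in crp3, apcs and 5 of the 8 lists. Some lists share genes.

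Markers of other cell types were read in the same libraries. The summed macrophage markers ranged between 179 and 284 CPM in glo2-/- and between 230 and 383 CPM in glo2+/+ liver, with 266 CPM in glo2-/- replicate 2 and 284 CPM in replicate 6. Of their 17 tested genes, 16 had a negative log2 fold change (94.1%, against 52.4% of all tested genes), and 3 were lower at an unadjusted p under 0.05. Neutrophil markers summed to between 7.31 and 11.9 CPM in glo2-/- and between 8.94 and 28.2 CPM in glo2+/+ liver, with 9.95 CPM in glo2-/- replicate 2 and 7.31 CPM, the lowest of the 12, in replicate 6. Of the 5 tested neutrophil genes, 3 were lower at that level, where 3.41% of all tested genes were. Exocrine pancreas markers varied most, between 41.8 and 7524 CPM in glo2-/- and between 19.8 and 2471 CPM in glo2+/+ liver, and the lowest values of glo2-/- liver were those of replicate 2 and of replicate 6, at 58.4 CPM. The highest sums were those of glo2-/- replicate 1, at 7524 CPM, and of glo2-/- replicate 5, at 3687 CPM. Every other glo2-/- library lay below the highest glo2+/+ library. All 19 tested pancreas genes had a positive log2 fold change, as had 6906 of all 14509 tested genes, and 0 were called. Their part in the crp values was not tested.

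The genes whose pattern was most like each copy were taken by Pearson r of log2 CPM over the 12 libraries, among 14509 tested genes outside the family. For crp3 they were apoc4, an apolipoprotein gene (r 0.95), si:ch211-198d23.1 (0.90) and rpz2 (0.89), and without glo2-/- replicate 2 r was 0.96, 0.91 and 0.90. For crp5 they were zgc:172225 (0.87), BCAP31 (0.82), an endoplasmic reticulum membrane protein, and CHMP3 (0.79), a subunit of the ESCRT membrane remodelling machinery, each highest in glo2-/- replicate 2. Without that library r was 0.69, 0.34 and 0.51, so the likeness of BCAP31 in particular came from 1 point. For crp2 they were MED4, a subunit of the Mediator complex (0.87), C1GALT1C1, a chaperone of O-glycan synthesis (0.85), and si:ch73-193c12.2 (0.85), with 0.86, 0.74 and 0.82 without that library. The crp2-like genes moved over a far narrower range, between 1.098 and 2.16 CPM for MED4. Counts of MED4 were 22 to 40 in glo2-/- and 25 to 31 in glo2+/+ libraries. Those of si:ch73-193c12.2 were 16 to 46 and 21 to 31, and counting error was not separated from their variation. All these r are the highest of many over 12 libraries, and whether they exceed chance was not tested.

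Summed over its 6 copies, nearly all of it crp3, the family's level differed between the genotypes by less than the replicate spread. The sum was 1953 ± 707 CPM over knockout and 1976 ± 478 CPM over wild type libraries (SD, 6 per genotype), a log2 ratio of -0.017, within the replicate SD of 0.49 on that scale. Without crp3, the other copies summed to between 4.04 and 373 CPM in glo2-/- and between 4.25 and 9.16 CPM in glo2+/+ liver, and their median was 13.1 CPM over knockout libraries and 6.21 CPM over wild type ones.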

How the data were processed

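The authors deposited estimated counts per gene, 19.1% of them not whole (by more than 0.001), and TPM, scaled to 1000000 per library. Per the submitters' processing notes, Trim Galore 0.6.4, kallisto 0.4.6 and the build GRCz11 were used. No source used here gives the annotation release, the strand setting or the summing of transcripts to genes. As a method, kallisto divides reads shared by similar copies by likelihood, so values of crp copies are uncertain. Symbols came from a name table that covered 29201 identifiers. Of 198 list entries 23 matched none.

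Counts were rounded and fitted over all genes with edgeR 4.0.16 (filterByExpr, TMM, genotype as the only term, Benjamini-Hochberg adjustment). The log2 CPM used a prior count of 2. Exact permutation tests used all assignments of the labels, correlations 100000 resamples. The fit was tested on simulated data. The deviations of same-numbered libraries from their genotype means had correlations between -0.28 and 0.20 (1 of 6 over 0.1). For glo2-/- replicates 1 and 4 the closest glo2+/+ library was that of the same number. The numbers were not taken as pairs, but 6 correlations cannot decide whether they are. No 2 libraries agreed within sampling noise. Named genes were all members, the 2 genes of smallest p per pathway list, fixed regulators, and the 3 genes most like each tested copy; some of these genes are not reported here. The members and lists were chosen with earlier results of these data known. Alternatives were other size factors and filters, DESeq2 1.42.0, limma-trend 3.58.1 on TPM, a replicate block and leaving out libraries.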

Additional observations from a re-analysis of the deposited data

Results flagged for a closer look

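One value stood outside its group by Dixon's criterion for 6 values. The log2 CPM of crp5 was 8.32 in glo2-/- replicate 2, while the other 5 glo2-/- libraries lay between 1.25 and 3.70, so that the gap was 0.65 of the whole range. The check covered 12 sets of 6 values (crp2, crp3, crp5, apcs, HAGH and the summed family in each genotype), of which chance flags about 1 in 20.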

How the results depend on the processing

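None of the 3 tested crp genes passed an adjusted p of 0.05 under any alternative that gave one: the adjusted p ranged between 0.635 and 0.995 for crp2, 0.920 and 0.998 for crp3, and 0.411 and 0.940 for crp5 (edgeR, DESeq2 or limma). With the replicate block, crp5 was at 2.07, crp2 at 0.70, crp3 at -0.12, HAGH at -0.22 and apcs at 4.42 (adjusted p = 0.853). With 1 library left out, log2 fold changes ranged between 0.41 and 1.92 for crp2, -0.19 and 0.082 for crp3, 1.47 and 4.93 for crp5, -0.13 and 0.058 for il6st, -0.58 and 0.34 for SOCS3 (ENSDARG00000025428), -0.068 and 0.12 for MED4, -0.051 and 0.24 for si:ch73-193c12.2, -0.17 and 0.064 for apoc4, -0.074 and 0.47 for si:ch211-198d23.1, and -0.17 and 0.23 for rpz2. Without glo2-/- replicates 2 and 6, chosen after seeing the data, the sign turned for crp2 (-0.054), crp3 (0.064), il6st (0.019), MED4 (-0.14), C1GALT1C1 (-0.027), si:ch73-193c12.2 (-0.22) and rpz2 (0.22). On log2(TPM + 1) and log2(TPM + 0.1) it turned for il6st (0.045 and 0.059), SOCS3 (ENSDARG00000025428; -0.098 and -0.19) and rpz2 (0.084 and 0.089), and with the replicate block for that SOCS3 copy (-0.25) and MED4 (-0.0062). The r of crp2 and crp5 was 0.64 on log2(TPM + 1) and no longer passed (adjusted permutation p = 0.104). Over all genes edgeR called 1 gene, DESeq2 34, edgeR with 1 library left out 1 to 3, and without glo2-/- replicates 2 and 6 it called 2. The cause of these changes was not tested. Counts of crp1, crp6 and crp7 were too low for the main edgeR fit. DESeq2 gave log2 fold changes of 5.52 for crp1, 1.48 for crp6 and -0.54 for crp7. The DESeq2 adjusted p was 0.859 for crp1 and 0.997 for crp7, and none was returned for crp6. These fitted values rest on few counts.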
